A study of Mus musculus with 20 samples.

Results

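The genomic positions of 5-formylcytosine (5fC) were compared between the heart and the liver of the same wild-type (WT) mouse embryos at E11.5. The comparison rests on 4 of the 20 pull-down libraries of the series, the heart and the liver of embryo i6 and the heart and the liver of embryo i9, and it was limited to the 19 autosomes. These libraries were taken because the labels give WT genotype, heart or liver, and the embryo. Both embryos came from intercrosses of mice that carry 1 *Tdg* null allele, and the 2 tissues of an embryo share its genotype, litter and age. The other 16 libraries are the carcass of the same 2 WT embryos, the hindbrain of 4 other WT embryos, and the heart, liver, carcass and hindbrain of *Tdg* null embryos, in which the coding sequence of the catalytic domain is replaced by a neomycin cassette. They were used only as further readouts for regions found in the WT heart and liver. The study set aside 1 *Tdg* null liver of poor quality without naming its embryo in the text. The *Tdg* null liver of embryo i5 held 228 peaks and entered no comparison here. Each library is 1 tissue of 1 embryo, so the number of embryos is 2 and the exact sign-flip test over them cannot reach a p value below 0.5.

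5fC is made when TET enzymes oxidise 5-methylcytosine and 5-hydroxymethylcytosine, mostly at CpG sites. Thymine DNA glycosylase, TDG, cuts 5fC out of DNA, after which base excision repair restores an unmodified cytosine. In cells with TDG the mark is found at low levels. At this stage the heart is made of beating cardiomyocytes with endocardial, epicardial and blood cells, and the liver is the main site of blood formation in the fetus, where erythroid cells grow among hepatoblasts. In such mixed tissues, a different make-up of cells and a different modification state within 1 kind of cell cannot be told apart.

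The sequences that carry the comparison come first. All are genome sequence of NCBIM37 (mm9), plus strand, read from the middle of the stretch under the peaks of every library that held the region. Regions found in both livers and in neither heart often held AGATAA or its reverse complement TTATCT, the word that GATA transcription factors bind. The first 3 lines, with this word in capitals, are regions of this kind in blood progenitor genes. They are shown because they hold the word. Of the 6 listed genes with such a region, the windows of *Tpm1*, *Cacna1c* and *Eng* hold it 0 times. The *Kit* window, chr5:76019001-76019300, crosses a coding exon of the gene for the stem cell factor receptor, the *Zfpm1* window, chr8:124814951-124815250, lies in an intron of the gene for a cofactor of GATA1, and the *Runx1* window, chr16:92744451-92744750, lies in an intron of the gene for a regulator of blood stem cell formation.
Kit, both livers: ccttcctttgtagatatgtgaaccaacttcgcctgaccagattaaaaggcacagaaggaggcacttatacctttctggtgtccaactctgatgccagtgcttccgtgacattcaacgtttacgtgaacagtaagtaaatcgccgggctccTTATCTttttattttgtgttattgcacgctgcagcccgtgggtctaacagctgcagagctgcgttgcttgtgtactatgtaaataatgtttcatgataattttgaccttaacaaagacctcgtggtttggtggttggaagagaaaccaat
Zfpm1, both livers: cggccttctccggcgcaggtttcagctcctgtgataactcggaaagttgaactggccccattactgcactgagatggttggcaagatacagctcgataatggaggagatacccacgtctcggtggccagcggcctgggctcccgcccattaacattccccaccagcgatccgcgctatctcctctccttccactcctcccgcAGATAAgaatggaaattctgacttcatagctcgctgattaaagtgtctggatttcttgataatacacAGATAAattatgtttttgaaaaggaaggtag
Runx1, both livers: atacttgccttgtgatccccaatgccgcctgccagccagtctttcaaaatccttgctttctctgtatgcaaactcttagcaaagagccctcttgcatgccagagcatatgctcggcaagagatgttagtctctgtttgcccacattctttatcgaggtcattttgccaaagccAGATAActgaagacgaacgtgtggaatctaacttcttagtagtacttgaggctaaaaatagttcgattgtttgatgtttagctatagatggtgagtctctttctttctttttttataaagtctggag
The next set shows a livers-only region in an exon and 2 hearts-only regions, with CpG sites in capitals. The *Shmt2* window, chr10:126957751-126958050, crosses a coding exon of the gene for mitochondrial serine hydroxymethyltransferase and holds 14 CpG sites. The *Zfpm2* window, chr15:40860501-40860700, lies in an intron of the gene for a GATA4 cofactor that is needed for heart development, and the *Slc8a1* window, chr17:81840501-81840700, crosses a coding exon annotated to the gene for the cardiac sodium-calcium exchanger, each with 4 CpG sites. The *Zfpm2* window also holds the GATA word, 1 time, and the *Slc8a1* window 0 times.
Shmt2, both livers: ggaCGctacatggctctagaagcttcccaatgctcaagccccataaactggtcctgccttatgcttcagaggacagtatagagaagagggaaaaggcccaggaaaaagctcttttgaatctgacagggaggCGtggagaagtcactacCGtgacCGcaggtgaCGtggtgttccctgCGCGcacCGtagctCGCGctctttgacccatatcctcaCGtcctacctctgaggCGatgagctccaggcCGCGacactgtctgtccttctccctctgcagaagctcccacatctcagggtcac
Zfpm2, both hearts: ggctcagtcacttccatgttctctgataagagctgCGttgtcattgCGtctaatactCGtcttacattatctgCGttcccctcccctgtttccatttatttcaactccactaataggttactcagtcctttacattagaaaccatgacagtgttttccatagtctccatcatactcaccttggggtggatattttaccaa
Slc8a1, both hearts: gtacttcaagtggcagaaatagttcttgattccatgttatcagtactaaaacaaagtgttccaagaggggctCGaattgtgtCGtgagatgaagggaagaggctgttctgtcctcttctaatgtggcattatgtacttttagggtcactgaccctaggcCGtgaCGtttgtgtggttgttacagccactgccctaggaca
The last set shows 3 other kinds of sharing, again with CpG sites in capitals. The *Arid3a* window, chr10:79399651-79399950, was found in all 4 libraries and is single-copy intron sequence with 12 CpG sites in the gene for a DNA-binding protein known from B cells. The second window, chr13:74666901-74667200, was found in both hearts and is a tandem run rich in CAG with 1 CpG. The last window, chr19:39428851-39429150, is a member of the repeat group that dominated sharing within embryo i6. Its 32-letter words occur in the genome with a median of 3544 copies.
Arid3a, all 4 libraries: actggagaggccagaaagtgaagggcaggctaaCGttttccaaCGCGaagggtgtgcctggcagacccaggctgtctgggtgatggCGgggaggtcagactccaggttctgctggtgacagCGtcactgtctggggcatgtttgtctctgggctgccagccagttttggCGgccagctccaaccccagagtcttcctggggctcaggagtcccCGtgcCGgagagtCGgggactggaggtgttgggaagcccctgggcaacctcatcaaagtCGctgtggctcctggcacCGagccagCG
chr13, both hearts: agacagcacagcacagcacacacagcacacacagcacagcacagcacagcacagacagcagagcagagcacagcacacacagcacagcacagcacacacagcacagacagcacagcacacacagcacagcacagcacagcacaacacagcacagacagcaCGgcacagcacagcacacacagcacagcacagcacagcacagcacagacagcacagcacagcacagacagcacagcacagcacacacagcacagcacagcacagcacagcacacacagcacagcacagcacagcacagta
chr19, embryo i6 repeat: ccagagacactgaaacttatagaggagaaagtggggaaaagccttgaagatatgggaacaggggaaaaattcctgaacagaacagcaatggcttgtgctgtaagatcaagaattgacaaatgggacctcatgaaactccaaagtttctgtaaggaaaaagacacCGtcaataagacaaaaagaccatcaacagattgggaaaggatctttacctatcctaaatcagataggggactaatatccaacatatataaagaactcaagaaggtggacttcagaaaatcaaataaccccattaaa

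The number of peaks did not separate heart from liver. Heart i6 held 5881 autosomal peaks and heart i9 held 5418. Liver i6 held 16368 peaks and liver i9 held 1740. The hearts were alike in number, 1.09-fold apart, whereas the livers differed 9.41-fold and lay on either side of both hearts. Within embryo i6 the liver had 2.78 times as many peaks as the heart, and within embryo i9 the heart had 3.11 times as many as the liver. The log2 ratio of heart to liver was -1.48 in i6 and 1.64 in i9, on average 0.081 ± 2.2 (SD, n = 2 embryos, two-sided exact sign-flip test, p = 1). Peaks covered 2.95 Mb in heart i6, 2.89 Mb in heart i9, 7.86 Mb in liver i6 and 0.856 Mb in liver i9, which is 0.123%, 0.121%, 0.328% and 0.0358% of the ungapped autosomes. The covered length therefore reversed between the embryos in the same way, with log2 ratios of -1.42 and 1.76. The median peak was 400 bp in heart i6 and 500 bp in each of the other 3 libraries. Peaks were called in each library on its own and no read numbers are in the files used here, so the part of sequencing depth in these numbers was not tested.

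**Figure D1:**
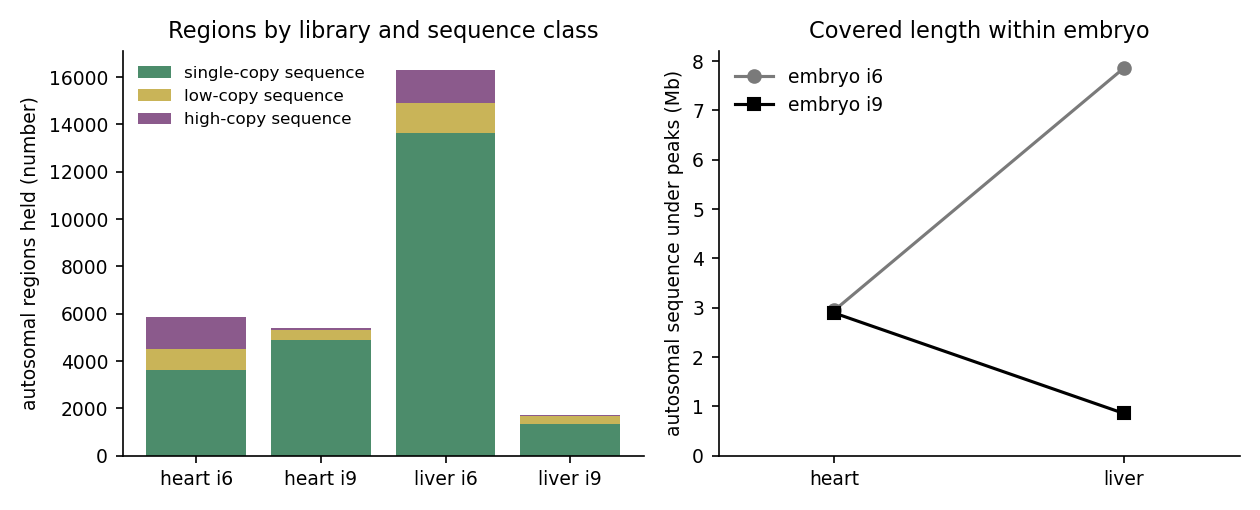
Left, number of autosomal regions held by each WT library, divided into single-copy, low-copy and high-copy sequence. Right, autosomal sequence under peaks in Mb, with a line joining the heart and the liver of an embryo; the line rises from 2.95 to 7.86 Mb in i6 and falls from 2.89 to 0.856 Mb in i9.

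Most peaks of either tissue were not under a peak of the other tissue of the same embryo. In embryo i6, 1742 of 5881 heart peaks overlapped a liver peak by at least 1 bp (29.6%, 95% exact binomial interval 28.5 to 30.8), and 1745 of 16368 liver peaks overlapped a heart peak (10.7%, 10.2 to 11.1). In embryo i9, 466 of 5418 heart peaks were shared with the liver (8.60%, 7.87 to 9.38) and 465 of 1740 liver peaks with the heart (26.7%, 24.7 to 28.9). The share was 26.7 to 29.6% when the smaller library of an embryo was set against the larger, and 20.8 and 22.7% in single-copy peaks. Among the 1740 widest peaks of each library it was 14.9% of heart peaks in i6 and 10.7% in i9. In bases, the overlap was 87.3 times that expected from the covered lengths in i6 and 222 times in i9, since each library covered under 1% of the autosomes. Shared peaks were longer than unshared ones in 3 of the 4 libraries, with medians of 500 against 400 bp for heart i6, liver i6 and liver i9, and 500 bp on both sides for heart i9.

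By Jaccard index over all peaks, overlap of heart and liver of 1 embryo could not be told from that of 1 tissue across embryos. In single-copy sequence and among the wider peaks, the index within an embryo was lower. The Jaccard index, the shared bases over the bases under either library, was 0.102 for the 2 hearts and 0.0660 for the 2 livers. It was 0.0848 for heart and liver of i6 and 0.0653 for heart and liver of i9. Between different tissues of different embryos it was 0.0752 for heart i9 with liver i6 and 0.0650 for heart i6 with liver i9. Heart i9 thus shared 28.4% of its peaks with the liver of the other embryo, close to the 29.6% that heart i6 shared with its own liver. Of the liver i9 peaks, 61.7% (59.4 to 64) lay under a peak of liver i6, the largest library, against 26.0% and 26.7% under a peak of heart i6 and heart i9. Same-embryo minus same-tissue Jaccard differences were 0.00099 in i6 and -0.0185 in i9 (mean -0.00877 ± 0.0138, exact sign-flip p = 1). In single-copy sequence both were negative, -0.0265 and -0.0230. When the 1740 widest peaks of each library were used, so that all libraries had the same size, the hearts reached 0.120 and the livers 0.0934, above 0.0723 for heart and liver of i6 and 0.0559 for those of i9. With peaks of at least 600 bp the mean difference was -0.0318. The 6 pairs share libraries, so these values are a description.

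Peaks of the 4 libraries that overlapped or touched were joined into 24419 regions, and each region was described by the libraries that held a peak in it. Regions of 1 library made up the bulk, with 12964 in liver i6 alone, 3671 in heart i6 alone, 3378 in heart i9 alone and 569 in liver i9 alone. Both hearts and neither liver held 410 regions, both livers and neither heart held 520, and all 4 libraries held 254. Heart and liver of i6 alone held 1099 regions, but heart and liver of i9 alone held 57. Regions of heart i9 with liver i6, which share neither tissue nor embryo, numbered 923. The number of regions that a combination can hold is limited by its smallest library. With the 1740 widest peaks of each library, hearts-only regions numbered 215, livers-only regions 141 and regions of all 4 libraries 61. The order of hearts-only and livers-only regions was thus the reverse of that with all peaks. That setting also selects peaks by width, so library size alone was not separated. The part of library size in the counts of the other combinations was not tested.

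**Figure D2:**
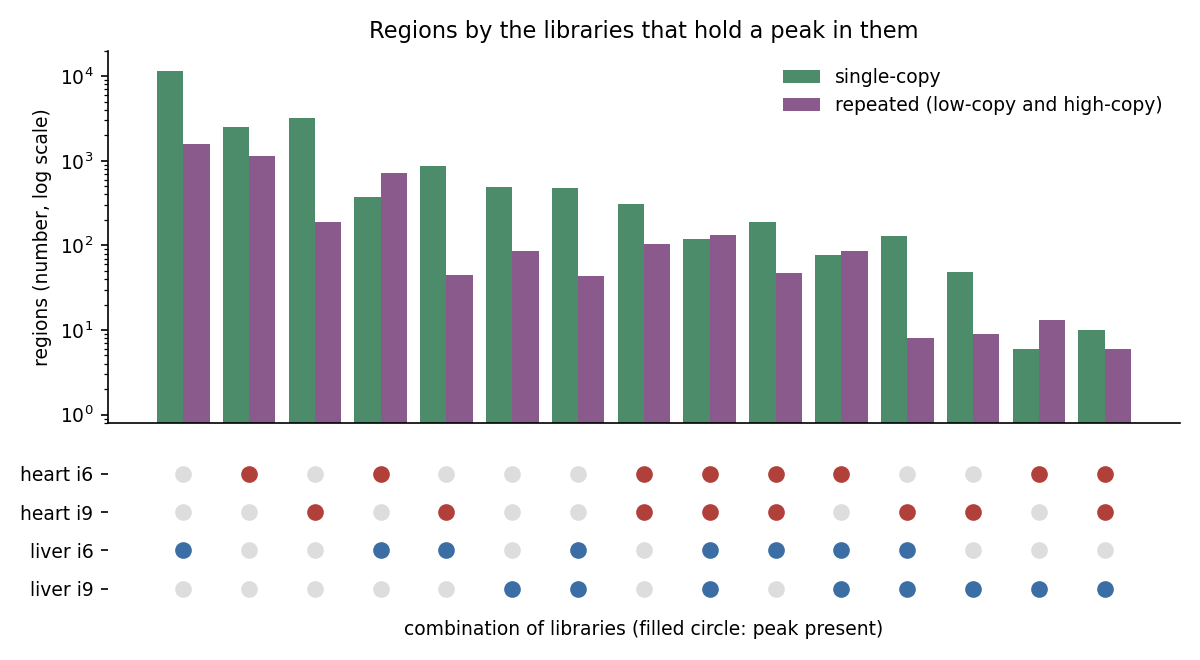
Number of regions for each combination of the 4 WT libraries, on a log axis, with filled circles under a pair of bars marking the libraries that hold a peak. Single-copy and repeated regions are drawn apart; among the combinations drawn with more than 100 regions, repeated sequence exceeds single-copy sequence for heart i6 with liver i6, for all 4 libraries, and for heart i6 with both livers.

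Repeated sequence accounted for much of what heart and liver of embryo i6 had in common. A region was called repeated when at least 50% of its 32-letter words occurred more than once in the genome, and high-copy when the median word also had at least 1000 copies. Of all regions, 4202 (17.2%) were repeated, against 12.2% of 23947 windows of 500 bp placed every 100 kb. The share was 65.9% for heart and liver of i6 alone and 52.8% for all 4 libraries, 25.4% for both hearts and 8.46% for both livers. One group of 2368 regions that share words with each other held 2096 of the 2134 high-copy regions. The letters of its member printed above are, by general knowledge and without a repeat annotation, those of LINE-1 coding sequence, a mobile element that fills a large part of the mouse genome. Of the regions of heart i6, 1484 were of this group (25.3%), of liver i6 1542 (9.46%), of heart i9 143 (2.64%) and of liver i9 102 (5.87%). The group made up 606 of the 1099 regions of heart and liver of i6 alone (55.1%). An i6 library held 97.9% of the group, beside 20415 of the 24419 regions of every kind.

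The same repeat regions were frequent in WT carcass and nearly missing from *Tdg* null heart, liver and carcass. WT carcass i6 and i9 had a peak on 43.3% and 39.4% of the 2368 regions, although these libraries cover 0.991% and 0.845% of the autosomes. WT hindbrain held 1.18 to 10.1% of them and *Tdg* null hindbrain 0.760 to 5.49%. *Tdg* null carcass i1 and i5 held 0.0422% each, *Tdg* null heart i1 held 0.591%, *Tdg* null heart i5 held 0.0845% and *Tdg* null liver i1 held 0 of 2368, although these cover 3.23 to 8.59% of the autosomes. High counts thus came from embryo i6 and from WT carcass of both embryos, and not from heart or liver of i9. Only 22.3% of the group lay in annotated genes, against 42.5% of the windows. Reads of such sequence match many places, and how the aligner placed them was not tested. The results below are therefore given for single-copy regions where they could be, which left 306 regions of both hearts, 476 of both livers and 120 of all 4.

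Regions held by both hearts recurred in other WT tissues more often than regions held by both livers. In WT hindbrain 2A8, O3, Q3 and Z3, the share of the 306 hearts-only regions under a peak was 20.9%, 31.7%, 44.1% and 24.2%. For the 476 livers-only regions it was 1.05%, 7.56%, 15.8% and 1.89%. The difference was 23.7 ± 3.59 percentage points (SD, n = 4 embryos), higher for the hearts-only regions in 4 of 4 hindbrains, with an exact sign-flip p of 0.125, the smallest that 4 embryos allow. In WT carcass, which comes from the same embryos as the heart and liver, the shares were 40.2% and 33.7% for hearts-only against 25% and 22.5% for livers-only regions. Over all 6 WT libraries the difference was 20.2 ± 6.21 points and in the same direction in 6 of 6 (exact sign-flip p = 0.03125, carcass and hindbrain taken as separate libraries). The same 2 sets of regions, defined by embryos i6 and i9, were scored in every library. These p values therefore describe agreement among the scored libraries and not replication of heart against liver over embryos. Single-copy regions of all 4 libraries recurred most in these 6 libraries, at 34.2 to 70.0%. With every copy class, hearts-only regions were ahead of them in WT hindbrain 2A8 (28.0 against 24.4%), O3 (37.6 against 28.7%) and Z3 (31 against 26.4%) and behind in Q3 and both carcasses. Of the regions of every copy class, 65% of livers-only regions were under no peak of the other 6 WT libraries, against 25.9% of hearts-only and 10.6% of all-4 regions. Among regions of 1 library this share was 72.2% for liver i6, 65.2% for liver i9, 73.2% for heart i6 and 43.6% for heart i9. The livers-only share thus lay within the range of regions held by a single library. In repeated sequence the hearts-only regions were ahead in the 4 hindbrains and behind in the 2 carcasses.

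In *Tdg* null embryos, where 5fC is not cut out and peaks are far more numerous, the regions of both tissues were found in both tissues. *Tdg* null heart i1 had a peak on 74.2% of hearts-only regions and on 89.5% of livers-only regions, and *Tdg* null heart i5 on 52.9% and 66.4%. *Tdg* null liver i1 had a peak on 54.2% and 49.4%. Livers-only regions were thus more often under a peak of a null heart than of the null liver, while the 2 null hearts cover 8.59% and 3.87% of the autosomes and the null liver 3.23%. Regions of all 4 libraries did not lead here, with 54.2% and 41.7% in the null hearts and 41.7% in the null liver. With all copy classes, 48.7 ± 12.2% (SD, n = 2) of hearts-only regions lay under a null heart peak and 46.3% of livers-only regions under the null liver peak, which is 1 library. No null liver replicate could be used, so no test was made.

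**Figure D3:**
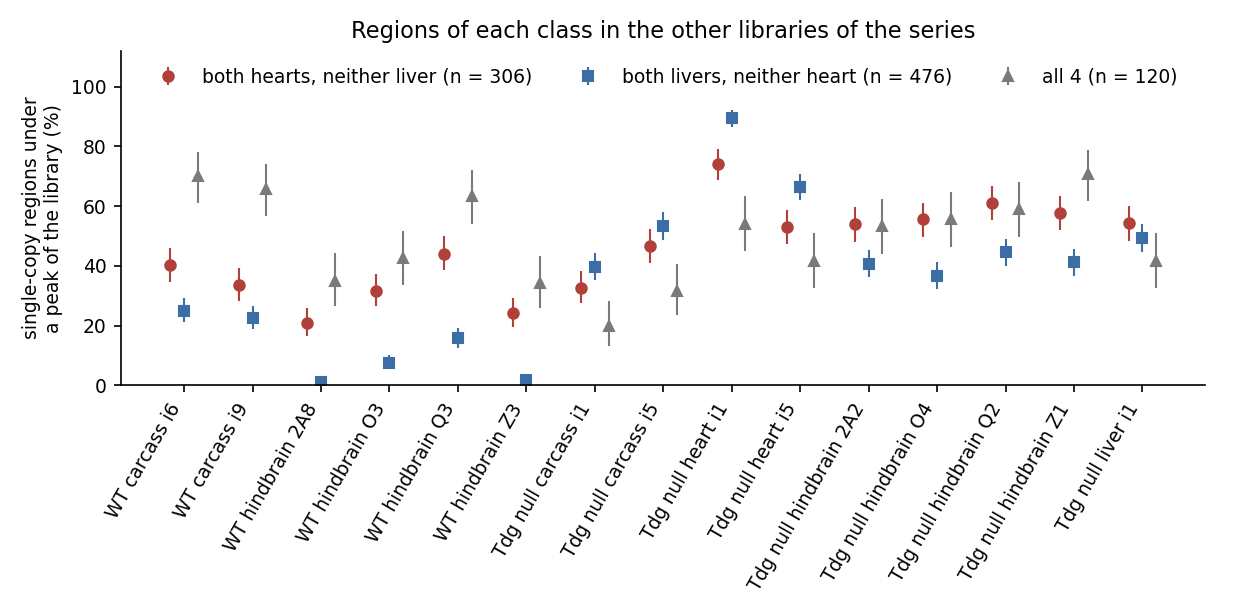
Share of single-copy hearts-only, livers-only and all-4 regions under a peak of each of the other libraries used, with 95% exact binomial intervals that cover counting error only. In the 4 WT hindbrains the hearts-only share is 20.9 to 44.1% and the livers-only share 1.05 to 15.8%, whereas in the 2 *Tdg* null hearts the livers-only share is the highest of the 3.

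Peaks of all 4 libraries lay in sequence richer in CpG sites than the windows, with small differences between heart and liver. CpG sites numbered 1.43 and 2.2 per 100 bp in the median peak of heart i6 and i9, and 1.8 and 2 in that of liver i6 and i9, against 0.6 in the median window. Median GC content was 46.3% and 49.4% in the hearts, 47.4% and 48.3% in the livers and 41.8% in the windows. CpG islands (CGIs) overlapped 4.03% of heart i6, 2.73% of heart i9, 2.84% of liver i6 and 2.47% of liver i9 peaks, and 1.06% of windows. The heart was above the liver in both embryos, by 1.19 and 0.26 percentage points (mean 0.725 ± 0.657, exact sign-flip p = 0.5), and in single-copy peaks by 0.378 and 0.0844 points. With a stricter definition of islands the mean difference was 0.187 points. Genes held 43.9% and 51.7% of heart peaks and 52.0% and 51.6% of liver peaks, against 42.5% of windows, so that heart i6 was close to the windows and the other 3 libraries were above them. In single-copy peaks the heart minus liver difference was -1.74 points in i6 and -4.75 points in i9. Exons held 9.56% and 14% of heart and 12.9% and 13.6% of liver peaks, against 7.55% of windows.

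Among regions found in both embryos, the contrast was sharper. CGIs overlapped 34 of 410 hearts-only regions (8.29%) and 8 of 520 livers-only regions (1.54%), against 2.77% of all regions. All-4 regions were like the hearts-only regions, with 21 of 254 (8.27%). In single-copy sequence the shares were 4.90%, 1.26% and 4.17%, against 1.38% of all single-copy regions. Genes held 62.7% of livers-only, 49.3% of hearts-only and 37.0% of all-4 regions, against 51.1% of all regions. Livers-only regions thus lay more in genes and less in CGIs than hearts-only and all-4 regions. In single-copy sequence their CGI share was close to that of all regions. Their median GC content, 47.7%, was close to the 48.5% of hearts-only regions.

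The word of GATA factors set liver regions apart from heart regions in both embryos. GATA1 drives erythroid genes, GATA2 acts in blood progenitors, and GATA4 acts in cardiomyocytes and in the early liver, and all of them bind the same core. AGATAA or TTATCT was searched in the middle 400 bp of each single-copy region. It was found in 253 of 476 livers-only regions (53.2%, 48.6 to 57.7) and in 58 of 306 hearts-only regions (19.0%, 14.7 to 23.8). All-4 regions stood between, at 38 of 120 (31.7%, 23.5 to 40.8), and 25.1% of 21034 single-copy windows of the same length held it. Within embryo i6, 842 of 2853 regions held by the heart and not the liver had it (29.5%), and 5299 of 12879 held by the liver and not the heart (41.1%). Within embryo i9 the numbers were 1259 of 4564 (27.6%) for heart and 474 of 1044 (45.4%) for liver. Liver was above heart by 11.6 percentage points in i6 and 17.8 in i9. Liver was the larger library in i6 and the smaller in i9, and the part of library size was not tested. The mean difference was 14.7 ± 4.37 points (SD, n = 2, higher in liver in 2 of 2 embryos, exact sign-flip p = 0.5).

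The difference was present at each GC content. Among regions under 45% GC, 66.0% of livers-only and 22.6% of hearts-only regions held the word, against 29.4% of windows. Between 45 and 50% GC the shares were 53.8%, 30.8% and 19.3%, and from 50% GC on they were 45.3%, 8.90% and 11.5%. Position told the same, since the word was concentrated in the centre of livers-only regions. In the 2 bins of 100 bp next to the middle, 21.0% and 22.3% of livers-only regions held it, and beyond 300 bp 3.99 to 7.98%. Hearts-only regions had 6.21% and 7.52% in those central bins and did not rise there. The larger sets held by the heart and not the liver of 1 embryo did rise, to 9.08% and 9.64% in i6 and 9.62% and 8.02% in i9, against 15.2% and 15% in i6 and 17.1% and 18.1% in i9 for the liver.

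**Figure D4:**
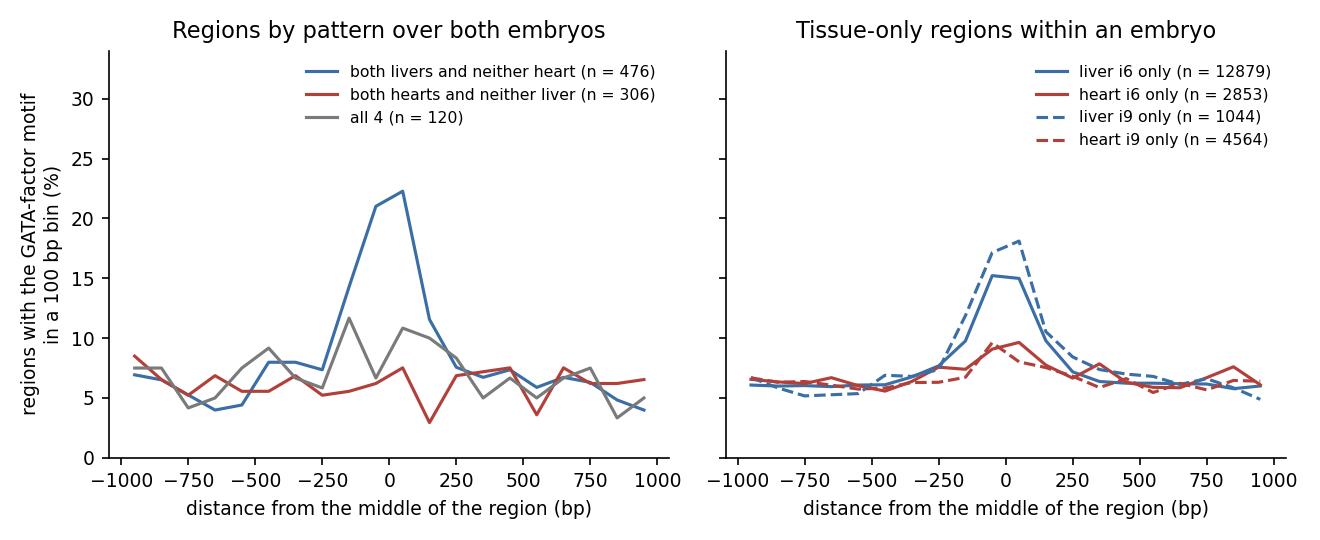
Share of single-copy regions with AGATAA or TTATCT in each 100 bp bin, by distance from the middle of the region in bp, for the combinations over both embryos (left) and for regions held by 1 tissue of an embryo and not the other (right). Livers-only regions rise to 22.3% at the centre, and in each embryo the liver curve is above the heart curve there.

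No other word of 6 letters differed as much. Over all 2080 words of 6 letters, each counted with its reverse complement, AGATAA had the largest liver minus heart difference in i6, in i9 and between livers-only and hearts-only regions. CTTATC, which overlaps it by 5 letters in TTATCT, was second in all 3 comparisons, and TGATAA followed. On the heart side the leading word was not the same in the 2 embryos. It was CACCTG, a word of E-box proteins and of SNAI and ZEB repressors, in i6 (26.6% of heart and 20.2% of liver regions), CTGCCA in i9 (41.7% and 31.6%), and CTTGGC between the classes of both embryos (37.6% of hearts-only and 25.4% of livers-only regions). CTTGGC holds TTGGC, the core letters of the NFI binding site.

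Other known motifs gave smaller contrasts. CCACACCC, with GGGTGTGG the word of the erythroid factor KLF1, was in 6.72% of livers-only regions (4.64 to 9.36), 3.59% of hearts-only regions (1.81 to 6.34) and 2.72% of windows. The Ets word CAGGAAGT was in 4.83% of livers-only and 4.90% of hearts-only regions, against 2.88% of windows. The palindrome CACGTG, an E box that holds a CpG, was in 14.9% and 14.1%, against 4.31% of windows. Words of cardiac factors were not more frequent in hearts-only regions beyond counting error. AGGTGTGA of T-box factors was in 1.96% of hearts-only and 1.68% of livers-only regions, against 1.64% of windows. TNAAGTG of Nkx2-5 was in 20.6% and 17.2%, against 21.8%, and the word of Mef2 factors, CTA and TAG with 4 letters between, in 4.58% and 8.61%, against 7.27%. Each word was searched on both strands. The hepatocyte factor word CAAAGTCCA of Hnf4a was in 3 and 2 regions, and in 0.518% of windows. A word in a region describes its letters and is no measure of binding.

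Across the tissues of the series the GATA word was most frequent in liver peaks, then in heart peaks. With peaks of all kinds counted, WT liver i6 and i9 had it in 39.1% and 39.5% of peaks, WT heart i6 and i9 in 27.5% and 27.6%, WT carcass in 19.2% and 18.5%, and the 4 WT hindbrains in 14.3 to 18.7%. The 2 embryos were within 1 percentage point of each other in heart, liver and carcass, and no tissue overlapped another in its range except carcass and hindbrain. *Tdg* null libraries had the same order, with 34.5% in liver i1, 31.9% and 30.9% in heart, 21.1% and 21.8% in carcass and 19.1 to 20.2% in hindbrain. Within *Tdg* null embryo i1, peaks held by the liver alone had the word in 35.6% and peaks held by the heart alone in 31.3%, a difference of 4.34 points in 1 embryo.

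Genes were assigned the peaks between their start and end. Of 34653 autosomal genes, heart i6 had a peak in 2117 (6.11%), heart i9 in 2181 (6.29%), liver i6 in 5241 (15.1%) and liver i9 in 865 (2.5%). A peak in all 4 libraries was found for 247 genes (0.713%), in both hearts and neither liver for 158 (0.456%), and in both livers and neither heart for 245 (0.707%). Gene length went with these classes. The median gene was 192 kb long among genes with a peak in all 4 libraries, 57.7 kb for hearts-only and 51.8 kb for livers-only genes, against 5.92 kb for all genes. Of the 245 livers-only genes, 191 (78%) held the same stretch in both livers, and of the 158 hearts-only genes 95 (60.1%) held the same stretch in both hearts. Only 100 of the 247 genes with peaks in all 4 libraries (40.5%) held a stretch shared by all 4, so most of them were marked at different places.

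Lists of genes of 8 kinds were described, with 187 of 190 genes found in the annotation, and for each library the peaks per Mb of gene body were divided by the same measure over all protein coding genes. With all 38 genes of the list counted, blood cell genes had more peaks per Mb than the average in both livers, beyond counting error. The heart values, also above the average, had intervals that held it. The 38 erythroid and blood stem cell genes had 1.92 times the average peak density in liver i6 and 3.08 times in liver i9, and 1.24 and 1.62 times in heart i6 and heart i9. The ratio of liver to heart was 1.55 in i6 and 1.90 in i9, and without the gene with most peaks in each library 1.67 and 1.49. Without *Runx1* in liver i6 and without *Meis1* in liver i9, the liver densities were 1.69 and 2.03 times the average. *Meis1* and *Zfpm1* each held 3 of the 8 liver i9 peaks. No interval was computed without them, so whether liver i9 then stays above counting error was not tested. A peak was present in 16 of the 38 genes in liver i6 and in 4 in liver i9, against 7 and 8 in heart i6 and i9. As shares these are 42.1%, 10.5%, 18.4% and 21.1%, beside 21.9%, 3.68%, 8.82% and 9.13% of all protein coding genes, so that by the number of genes marked the list was above the background in heart as well and the liver did not stand out from the heart in i6. The 22 endothelial and endocardial genes were at 2.05, 2.65, 1.57 and 3.28 times the average density in heart i6, heart i9, liver i6 and liver i9, and only the interval of heart i9 (3.56 to 13.6 per Mb) lay above the average (2.8). A peak was present in 22.7%, 27.3%, 54.5% and 13.6% of these genes, beside 8.82%, 9.13%, 21.9% and 3.68% of all protein coding genes. The median gene was 43.2 kb long in this list and 23.9 kb in the erythroid list, against 15.5 kb for all protein coding genes. The shares of genes with a peak are not corrected for this length. The intervals are wide, since the erythroid value of liver i9 rests on 8 peaks and the endothelial one on 4.

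Genes that define the heart and the hepatocyte were marked in part, in either tissue. Of the 25 cardiac transcription factor genes, 4 held a peak in each heart (16% and 16%, beside 8.82% and 9.13% of all protein coding genes), 8 in liver i6 (32%, beside 21.9%) and 1 in liver i9 (4%, beside 3.68%). By density the 25 cardiac transcription factor genes had 1.21 and 1.32 times the average density in the hearts, and 1.3 and 0.678 times in the livers. The 25 sarcomere and calcium handling genes had 1.49 and 0.540 times in the hearts, and 0.930 and 1.25 times in the livers, with a peak in 24% and 12% of the genes in the hearts (beside 8.82% and 9.13%) and in 40% and 12% in the livers (beside 21.9% and 3.68%). Among the genes without a peak in the 4 libraries were *Nkx2-5*, *Gata4* and *Gata6*, which encode core cardiac factors. The gene of the sarcomere protein titin, *Ttn*, held 1 peak, in heart i6. Of the 26 hepatocyte genes, 7 held a peak in liver i6 (26.9%, beside 21.9% of all protein coding genes), 2 in heart i6 (7.69%, beside 8.82%) and 0 in either library of i9. *Alb* and *Afp*, the genes of albumin and alpha-fetoprotein, held 0 peaks, and *Hnf4a* held 1, in liver i6. The 14 epicardial and mesenchymal genes held a peak in 6 cases in liver i6 (42.9%, beside 21.9%), in 1 in heart i6 (7.14%, beside 8.82%) and in 0 in the i9 libraries, where 9.13% of all protein coding genes had one in the heart and 3.68% in the liver. Peaks record a mark on DNA and not expression, so they are no check of the labelled tissue.

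Neural genes had fewer peaks per Mb than the average in liver i6, while the intervals of both hearts held the average. A peak was present in 1 of the 17 genes in heart i6 (5.88%, beside 8.82% of all protein coding genes), 3 in heart i9 (17.6%, beside 9.13%), 3 in liver i6 (17.6%, beside 21.9%) and 0 in liver i9 (beside 3.68%). They had 0.563 and 0.613 times the average density in the hearts, 0.101 times in liver i6 and 0 peaks in liver i9, which allows a density up to 1.05 per Mb (exact Poisson bound) where the average was 0.906, so that liver i9 cannot be told from the average. Most of the heart values came from *Nrxn3*, a gene of 1612 kb for a synaptic adhesion protein, which held 5 peaks in heart i6, 4 in heart i9, 1 in liver i6 and 0 in liver i9. None of its 9 heart peaks was shared between the hearts, and each was 200 or 300 bp long. The 20 genes of cytosine modification and repair had 6 with a peak in liver i6, 1 in heart i9 and 0 in heart i6 and liver i9. They were *Tet1*, *Tet3*, *Tdg*, *Uhrf1*, *Xrcc1* and *Lig3*, with 1 peak each in liver i6, and *Tet1* again in heart i9. The 30% of them with a peak in liver i6 stands beside 21.9% of all protein coding genes, and the 5% in heart i9 beside 9.13%. In heart i6 and liver i9 the background was 8.82% and 3.68%.

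**Figure D5:**
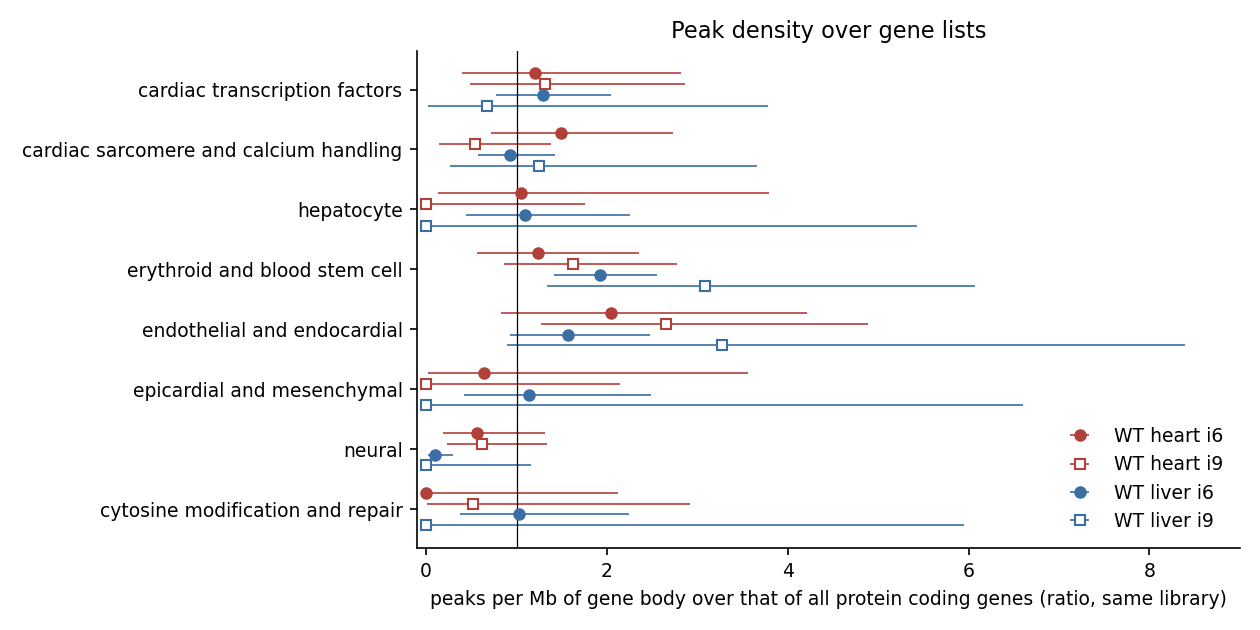
Peaks per Mb of gene body in 8 gene lists over the same measure in all protein coding genes of that library (ratio, vertical line at 1), with exact Poisson intervals that cover counting error only. Erythroid and blood stem cell genes are at 1.24 and 1.62 in the hearts and at 1.92 and 3.08 in the livers.

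Of the listed genes, 13 held peaks in both hearts (6.95%, beside 3.70% of all protein coding genes) and 10 in both livers (5.35%, beside 3.16%), 18 genes in all. Of these 18, 6 held a stretch found in both livers and neither heart, and 2 a stretch found in both hearts and neither liver. The share of all genes with such a stretch was not computed, so these counts have no background. *Kit* held peaks in both livers and none in the hearts. Its exonic stretch, chr5:76018901-76019500, was covered for 500 bp in liver i6 and 600 bp in liver i9, and a second peak in an intron was found in liver i6. No WT hindbrain or carcass library held the exonic stretch, while both *Tdg* null hearts, *Tdg* null liver i1 and both *Tdg* null carcasses did. *Zfpm1* showed 3 states in 1 gene. Its intronic stretch at chr8:124814701-124815500, 9.06 kb from the start of the gene, was found in both livers, for 800 and 600 bp. Another, chr8:124830401-124831300, was found in both livers and in heart i6, and the last, chr8:124853301-124855300, in all 4 libraries over 1200, 1500, 1600 and 1900 bp. The read-through gene model *Gm20388* overlaps *Zfpm1*, so its peaks are counted for both. *Runx1* held 9 peaks in liver i6, 1 in liver i9, 1 in heart i6 and 3 in heart i9. The livers shared chr16:92744401-92744900 and no heart peak of the gene was shared with a liver.

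The other livers-only stretches lay in genes not particular to blood. In *Eng*, the gene of endoglin in endothelium, chr2:32528601-32529400 was covered for 800 bp in both livers and crossed a coding exon. In *Tpm1*, the gene of a tropomyosin, chr9:66887601-66888300 was covered for 700 and 400 bp in liver i6 and i9. In *Cacna1c*, the gene of the cardiac L-type calcium channel, chr6:118793501-118794100 was covered for 500 and 600 bp. These are genes of the endothelium and the heart, and *Tpm1* and *Eng* each had a heart i9 peak elsewhere. *Cdh5*, the VE-cadherin gene, had a peak in each liver and none in the hearts, but at different places in its introns.

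Both hearts shared a stretch in *Zfpm2* and *Slc8a1*. The *Zfpm2* stretch, chr15:40860301-40860700, was covered for 200 bp in heart i6 and 400 bp in heart i9, and the same gene held 5 peaks in liver i6 and 1 in liver i9 at other places. The *Slc8a1* stretch, chr17:81840301-81840700, was covered for 400 and 200 bp. A second *Slc8a1* stretch, chr17:81879401-81880400, was found in all 4 libraries, in 3 of 4 WT hindbrains and in both WT carcasses. *Tbx5*, a T-box factor of the forming heart, was the 1 cardiac transcription factor gene with peaks in both hearts and in neither liver. Those peaks were in different places of its introns, 800 bp at chr5:120316501-120317300 in heart i9 and 500 bp at chr5:120328901-120329400 in heart i6. *Flt1*, the gene of VEGF receptor 1, held a stretch found in all 4 libraries at chr5:148483401-148484300, covered for 800 and 600 bp in heart i6 and i9 and for 300 bp in each liver.

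*Prdm16*, a zinc finger regulator of the myocardium, *Spnb1* (erythroid beta-spectrin), *Mllt3*, *Erg*, *Ets1* and *Vwf* (von Willebrand factor) held peaks in both hearts and in liver i6 and none in liver i9. In *Spnb1*, heart i9 and liver i6 shared 2 intronic stretches and heart i6 had peaks elsewhere. *Prdm16* shared 1 stretch between heart i6 and liver i6 and 1 between heart i9 and liver i6. In *Mllt3*, *Erg*, *Ets1* and *Vwf* no stretch was held by more than 1 of the 4 libraries.

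The widest regions of each class, ranked by the covered length in the library with the smallest cover, were of different kinds. The 8 widest hearts-only regions were covered for at least 2000 bp in each heart, and 6 of the 8 lay outside genes. The longest, chr8:19915801-20004900, covered 89100 bp in heart i6 and 34400 bp in heart i9, in low-copy sequence around *Gm15319*. Others were at chr14:20452901-20455600, at chr4:118219501-118221500, and near the assembled start of chromosome 4 at chr4:3016501-3018900. All 4 WT hindbrains held 6 of the 8, and no WT carcass held any of them. The median number of *Tdg* null libraries with a peak on them was 4.

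The 8 widest livers-only regions were shorter, covered for 900 to 1100 bp in the liver with the smaller cover, and 6 of the 8 lay in genes. They included the exonic *Shmt2* region, chr10:126957401-126958400, with 900 bp in each liver, regions that reach the untranslated ends of *Atf6b*, a factor of the unfolded protein response, and *Rufy3*, and intronic regions of *Ctif* and *Tmem120b*. The 5 of them in *Shmt2*, *Atf6b*, *Ctif*, *Rufy3* and *Tmem120b* were in none of the 4 WT hindbrains. The first of them by the smaller cover, chr4:150099001-150100400, lay 72.7 kb from *Slc45a1* and was in 3 WT hindbrains and both WT carcasses.

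The 8 widest all-4 regions were covered for 1100 to 2000 bp in the library with the smallest cover, the measure by which regions were ranked. Repeated sequence made up 5 of the 8, and both WT carcasses held 7. The *Arid3a* region, chr10:79399101-79400500, ranked highest among those in single-copy sequence, with 1300 bp in both hearts, 1400 bp in liver i6 and 1300 bp in liver i9. It was the only region of the 8 apart from *Zfpm1* in an intron of a protein coding gene, and it was in 1 WT hindbrain, both WT carcasses and 6 *Tdg* null libraries.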

How the data were processed

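Heart and liver of WT embryos i6 and i9 were compared as 5fC pull-down peaks. DNA was sonicated, 5fC was tagged with a biotinylated aldehyde-reactive probe and captured on streptavidin. Per the labels and the methods of the study, the authors trimmed reads (Trim Galore), aligned them to NCBIM37 (mm9) with Bowtie2 and called peaks in each library with MACS inside SeqMonk (p cutoff 1e-05, fragment size 200 bp). Use of an input library and removal of duplicates are not given in the sources used here. The deposited values are positions, the chromosome, start and end of each peak, 1-based on a 100 bp grid, with no score or read number. Depth is therefore unknown, and intervals (95%, exact) cover counting error only.

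From these positions, peaks on 19 autosomes were set against each other and against the gene annotation of NCBIM37. Peaks that shared at least 1 bp were counted as overlapping. Touching or overlapping peaks of the 4 libraries were joined into regions. Sequence was called repeated from 32-letter words of the whole genome, and repeated regions with at least 30 shared words were grouped. CGIs were called from sequence (at least 200 bp, 50% GC, ratio above 0.6). The labels give the same embryo for heart and liver, so the tests paired them. Named genes are those of the lists with a peak in both libraries of a tissue, and the genes in the 8 regions of each of 3 combinations with the largest smallest covered length. Of listed symbols, 3 were matched by an older name and 3 had no match. Members and lists were chosen with earlier results of these data known, and the motifs, the words and the settings on single-copy sequence, on the widest peaks and on the GATA word were chosen after seeing the data. The assignment of regions to combinations was tested on simulated data, where 1290 of 1290 planted regions were recovered. The result for 1 region is not reported here. Python 3.11.15, numpy 2.4.6, pandas 2.3.3, scipy 1.17.1, numba 0.67.0 and matplotlib 3.10.9 were used.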

Additional observations from a re-analysis of the deposited data

How the results depend on the processing

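The peak positions fix the outcome only as far as the calling threshold of each library allows, and 102 alternative values were computed for 16 results. The comparisons were paired by embryo. Without the block, the same means were tested unpaired (exact permutation of 2 against 2): 0.081 for peak number (p = 1), 0.171 for covered length (p = 1), 0.725 points for the CGI share (p = 0.667), -3.99 points for the gene share (p = 0.667) and 14.7 points for the GATA word (p = 0.333, the smallest this design allows). With 1 embryo left out, the log2 ratio of peak number ranged from -1.48 to 1.64, that of covered length from -1.42 to 1.76, and the gene share difference from -8.07 to 0.0888 points, so that their sign rests on the embryo. In single-copy peaks the gene share difference was negative in both embryos (-1.74 and -4.75 points).
Counts moved with the peaks that entered. Hearts-only regions (410) were 212 with peaks of at least 600 bp, 215 with the 1740 widest peaks of each library and 4116 to 4947 with 1 embryo left out. Livers-only regions (520) were 205, 141 and 1272 to 14546, and all-4 regions (254) were 86, 61 and 467 to 1753, and 120 in single-copy sequence. Hearts-only genes (158) were 98 with peaks of at least 600 bp, 288 with 10 kb added on each side and 736 to 1788 with 1 embryo left out. Livers-only genes (245) were 115, 402 and 472 to 3860, and genes with a peak in all 4 (247) were 73 with peaks of at least 600 bp and 393 to 1381 with 1 embryo left out. The share of hearts-only regions under *Tdg* null heart peaks (48.7%) was 63.6% in single-copy sequence. The share of livers-only regions under *Tdg* null liver peaks (46.3%) was 51.7% with peaks of at least 600 bp and 31.8 to 42.8% with 1 embryo left out. The cause of these shifts was not tested, other than that fewer peaks enter the stricter settings.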

Other observations

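Peaks off the autosomes made up 8.55% of heart i6, 3.54% of heart i9, 3.08% of liver i6 and 8.47% of liver i9 peaks. On the X chromosome, 297 of 503 heart peaks were shared with the liver in embryo i6 and 86 of 177 in embryo i9.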
